A study of Mus musculus with 10 samples.

Results

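Goblet cells are the mucus-secreting cells of the intestinal epithelium, and 10 genes known to mark them were followed in the jejunum of mice with and without the yeast NADH dehydrogenase NDI1. The genes were chosen by symbol as known goblet cell genes (Muc2, Fcgbp, Zg16, Tff3, Spink4, Klk1, Retnlb, Agr2, Spdef and Atoh1), and all 10 were found among the 45707 rows of the expression table. The question of the comparison was whether making NDI1 in the gut epithelium changes the transcriptome of the tissue, and here it was asked of the goblet cell program. Values are normalized counts, which are reads per gene divided by a size factor for each library.

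Goblet cells arise in the crypts from progenitors that escape Notch signalling and switch on the transcription factor Atoh1. Goblet, Paneth and enteroendocrine cells of the gut all need Atoh1. Spdef then drives the maturation of goblet cells, which fold very large mucins in the endoplasmic reticulum with the help of Agr2 and release them as a gel built on Muc2. Other proteins are released with the gel, among them Fcgbp, Zg16 and Tff3.

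Libraries came from 5 Vil-Cre mice and 5 Vil-Cre:NDI1 mice, 1 library per mouse. Every animal carried Villin-Cre, a recombinase driven by the Villin promoter in intestinal epithelial cells. Vil-Cre:NDI1 mice also carried NDI1 behind a loxP-flanked stop cassette in the ROSA26 locus, so that recombination in epithelial cells, goblet cells among them, permits its expression. All were male littermates aged 8 to 12 weeks, fasted overnight and gavaged with water, and the jejunum was flushed of its contents and frozen whole. In such bulk tissue, fewer goblet cells and less RNA per goblet cell cannot be told apart. Replicates are separate mice.

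The libraries held 10145705 to 12371530 reads on genes. NDI1 reads numbered 0 in 4 of the Vil-Cre libraries and 1 in the other, and NDI1 stood at 982 to 2575 normalized counts in the Vil-Cre:NDI1 mice. The epithelium was represented in each mouse, with 11 enterocyte marker genes summing to 418044 to 807485 normalized counts, and 12 pancreatic acinar markers summed to 37.4 to 68.6. In Vil-Cre 5 the enterocyte markers were low, at a median of -0.43 from the mean of its genotype on the log2 scale. Genotype differences of the 9 goblet cell genes that could be tested are given with and without this mouse. As a check of the label, 9 of the 10 goblet cell genes had 101 normalized counts or more in every mouse, and Retnlb was near 0.

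On GRCm38 with the GENCODE M21 annotation, 4 of the 10 genes are on chromosome 7 but far apart, with Fcgbp at 28071236 to 28120862, Klk1 at 44225360 to 44229618, Zg16 at 127050156 to 127087328 and Muc2 at 141690340 to 141754693. Spdef (27714352 to 27728955) and Tff3 (31125306 to 31129646) are on chromosome 17. Atoh1 is on chromosome 6 at 64729125 to 64731245, Agr2 on chromosome 12 at 35992907 to 36004087, Spink4 on chromosome 4 at 40920052 to 40931395 and Retnlb on chromosome 16 at 48816856 to 48818892. No exon of the 10 genes overlaps an exon of another annotated gene.

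Promoter windows of 6 of the 10 genes were held in the RefSeq table for GRCm38.p6, and 4 are printed because they pair the main gel proteins with the regulators of the lineage. Each shows the 150 bases before the RefSeq start, 5′ to 3′ on the strand of the gene, and capitals mark the E-box CANNTG, the kind of word that Atoh1 and other helix-loop-helix factors bind. Muc2 is at chr7:141690190-141690339 (plus strand), Fcgbp at chr7:28071086-28071235 (plus), Atoh1 at chr6:64728975-64729124 (plus) and Spdef at chr17:27728952-27729101 (minus).
Muc2: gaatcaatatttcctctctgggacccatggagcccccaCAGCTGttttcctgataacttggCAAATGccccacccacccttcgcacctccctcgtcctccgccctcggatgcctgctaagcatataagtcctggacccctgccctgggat
Fcgbp: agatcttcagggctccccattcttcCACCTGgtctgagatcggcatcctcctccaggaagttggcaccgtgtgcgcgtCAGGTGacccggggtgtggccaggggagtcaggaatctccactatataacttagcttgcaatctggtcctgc
Atoh1: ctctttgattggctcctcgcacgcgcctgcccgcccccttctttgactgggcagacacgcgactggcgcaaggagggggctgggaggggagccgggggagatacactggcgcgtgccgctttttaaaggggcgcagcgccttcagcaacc
Spdef: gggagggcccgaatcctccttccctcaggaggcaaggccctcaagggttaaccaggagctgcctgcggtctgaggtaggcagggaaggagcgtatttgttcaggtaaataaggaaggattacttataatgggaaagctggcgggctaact

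Muc2 and Fcgbp each hold 2 E-boxes in the printed 150 bases, and Atoh1 and Spdef hold none there. Over the longer window of 250 bases before the start, searched on both strands, CANNTG was found in 4 of the 6 genes (Muc2, Fcgbp, Klk1 and Agr2), against 66.2% of 32851 mouse promoter windows of that length. Its form CAGCTG was found in Muc2 and Fcgbp, against 13.0% of all windows, and CATCTG only in Klk1 among the 6, against 14.4%. TATAAA was found in Muc2, 174 bases before the start (12.4% of all windows). CCGCCC was found in Atoh1 and Muc2 (32.7% of all windows), while TGTTTAC (3.17%) and TTTATTG (4.20%) were found in none of the 6. The share of G and C over these 250 bases ran from 44.4% in Agr2 to 58.8% in Klk1, around the median of 52.4% for all windows. CG dinucleotides numbered 14 in Atoh1 and 0 in Klk1, where the median of all windows was 6. A match of letters is a description and not a measured binding site.

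Between genotypes, none of the goblet cell genes passed the threshold, although the fitted value of all 9 genes that could be tested lay on the lower side in Vil-Cre:NDI1 mice. Tested genes had at least 10 normalized counts in at least 5 mice, which Retnlb did not reach. The genotype comparison used limma on log2(value + 1) over all 14301 such genes, with Benjamini-Hochberg adjustment, and log2 fold changes are Vil-Cre:NDI1 minus Vil-Cre. At an adjusted p under 0.05, 0 of the 9 were called, where 0.00699% of all genes tested were (1 gene, NDI1 itself). At an unadjusted p under 0.05 there were 0 of 9, against 4.24% of all genes. The adjusted p from limma was 0.998 for each of the 9. A log2 fold change below 0 was found in 9 of 9, against 48.8% of all genes, and the genes share their mice and vary together (below), so these are not 9 independent signs. Their median log2 fold change was -0.21, beside 0.0052 for all genes tested. Leaving out Vil-Cre 2 brought this median to -0.12, as did leaving out Vil-Cre:NDI1 5, and without Vil-Cre 5 it was -0.19, with all 9 genes still below 0 and 0 called.

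**Figure D1:**
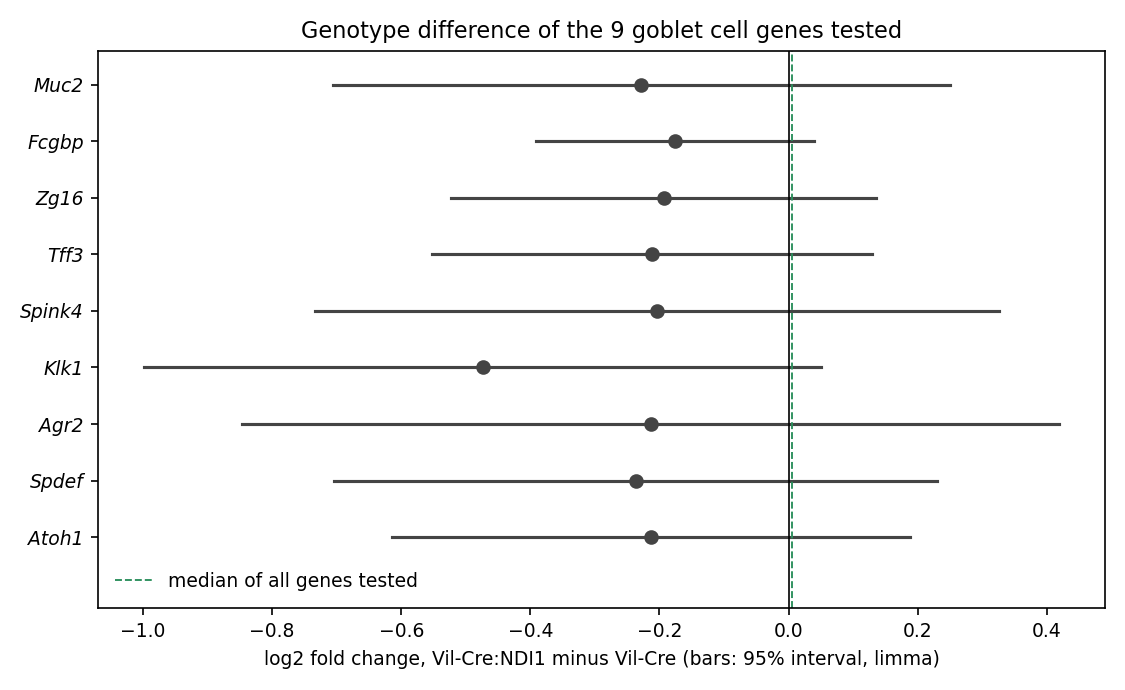
Log2 fold change of each of the 9 goblet cell genes tested (Vil-Cre:NDI1 minus Vil-Cre, horizontal axis), with points for the limma estimate, bars for its 95% interval and a dashed line for the median of all genes tested. Every point lies below 0, from -0.47 (Klk1) to -0.18 (Fcgbp), and every bar crosses 0.

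The gel itself is built by Muc2, the polymeric mucin of the intestine. Muc2 was at 11568, 14284, 8241, 13475 and 11689.6 normalized counts in Vil-Cre 1 to 5 and at 10017, 9753, 8744, 16535 and 6883 in Vil-Cre:NDI1 1 to 5. The highest and the lowest mouse of the study were both Vil-Cre:NDI1 mice, and the groups overlapped. Its mean was 11852 ± 2329 (SD, n = 5) in the controls and 10387 ± 3651 (SD, n = 5) with NDI1. The log2 fold change was -0.23 (standard error 0.22), with a 95% interval from 38.7% lower to 18.9% higher. It was -0.10 without Vil-Cre:NDI1 5, -0.41 without Vil-Cre:NDI1 4, -0.35 without Vil-Cre 3 and -0.23 without Vil-Cre 5. A two-sided exact permutation test over the 252 assignments of 10 mice to groups of 5 gave p = 0.405, where the smallest p it allows is 0.00794.

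Fcgbp, a large protein that is joined to the mucin network, was the most abundant of the 10 by normalized count. Fcgbp was at 36381, 41482, 41057, 41935 and 39144 normalized counts in Vil-Cre 1 to 5 and at 37541, 35549, 36280.3, 35638 and 32052 in Vil-Cre:NDI1 1 to 5. Of the Vil-Cre:NDI1 mice, 4 were below the lowest control and the other was within the control range, so the groups overlapped by 1 mouse. The mean was 39999.7 ± 2285 (SD, n = 5) against 35412 ± 2040 (SD, n = 5), a log2 fold change of -0.18 (standard error 0.098) with a 95% interval from 23.8% lower to 2.79% higher. The exact permutation test gave p = 0.0159 without adjustment for the 10 genes. In limma, whose estimate of a gene's spread borrows from other genes of like level, the unadjusted p was above 0.05. On the recovered reads DESeq2 gave an unadjusted p of 0.0118 and an adjusted p of 0.457 for Fcgbp. Leaving out Vil-Cre 5 left this difference at -0.18 on the log2 scale. Its exact permutation p was the lowest of the 10 genes, and it was not called by limma, DESeq2 or edgeR.

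Zg16, a lectin of the mucus that binds the cell wall of Gram-positive bacteria, was at 17565, 22458, 14824, 18939.7 and 18289 normalized counts in Vil-Cre 1 to 5. In Vil-Cre:NDI1 1 to 5 Zg16 was at 18960.4, 13595, 15195, 20117 and 13157. Only 2 of the Vil-Cre:NDI1 mice were below the lowest control, and the groups overlapped. The means were 18415 ± 2750 (SD, n = 5) and 16205 ± 3163 (SD, n = 5), with a log2 fold change of -0.19 (standard error 0.15) and an exact permutation p of 0.270. The 95% interval ran from 30.4% lower to 9.89% higher. Leaving out Vil-Cre 2 or Vil-Cre:NDI1 5 brought the log2 fold change to -0.12, and leaving out Vil-Cre 5 to -0.19. In all 10 genes, the groups overlapped, so 0 of 10 separated the genotypes, where 0.699% of the genes tested did.

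**Figure D2:**
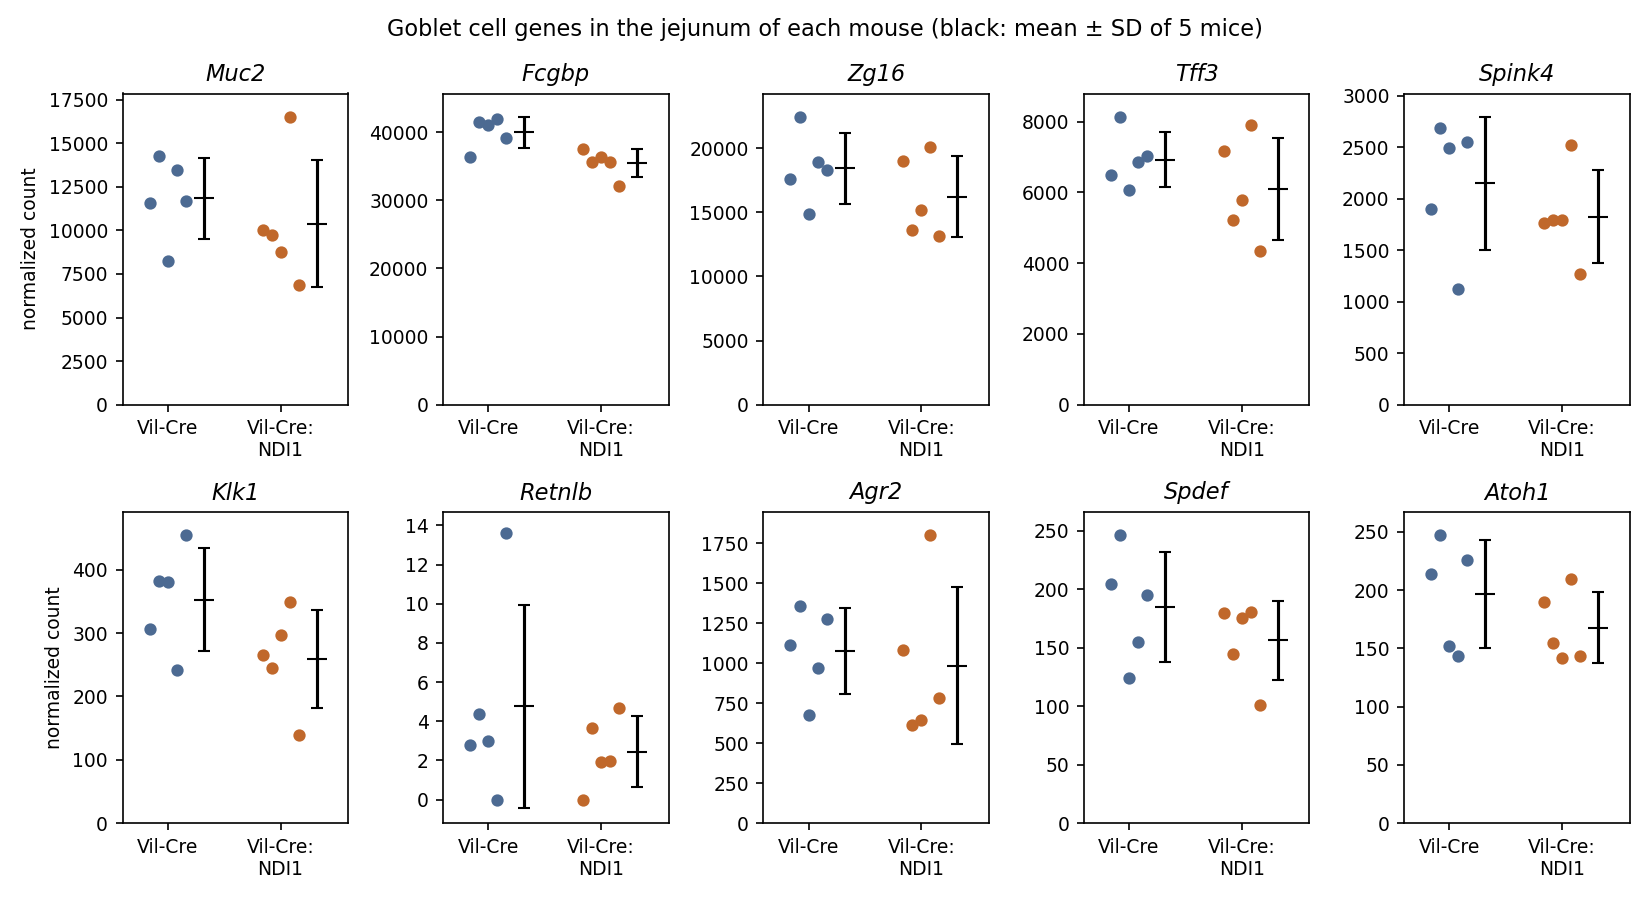
Normalized count (vertical axes, linear) of each of the 10 goblet cell genes in every mouse, with 5 Vil-Cre mice in blue and 5 Vil-Cre:NDI1 mice in orange, replicates 1 to 5 from left to right within a group, and black marks for the mean ± SD. The groups overlap in each gene; in Fcgbp 4 of the 5 Vil-Cre:NDI1 mice lie below all controls, and Retnlb does not exceed 13.6.

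Of the smaller secreted proteins, Tff3 is a trefoil peptide that is released with the mucus and supports repair of the epithelium. Tff3 was at 6493, 8142, 6075, 6852 and 7036 normalized counts in Vil-Cre 1 to 5 and at 7176, 5227, 5793, 7896 and 4336 in Vil-Cre:NDI1 1 to 5. Below the lowest control were 3 Vil-Cre:NDI1 mice, while the other 2 were above the control mean. The means were 6920 ± 776 (SD, n = 5) and 6086 ± 1445 (SD, n = 5), a log2 fold change of -0.21 (standard error 0.16) with an exact permutation p of 0.262. The 95% interval reached from 31.8% lower to 9.35% higher. Leaving out Vil-Cre:NDI1 5 brought this difference to -0.098 on the log2 scale, and leaving out Vil-Cre 5 to -0.20.

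Spink4 belongs to the Kazal family of serine protease inhibitors. Spink4 was at 1899, 2683, 2488, 1127 and 2553 normalized counts in Vil-Cre 1 to 5 and at 1760.5, 1793, 1787, 2519.8 and 1267 in Vil-Cre:NDI1 1 to 5. The lowest mouse was a control, Vil-Cre 4, and all Vil-Cre:NDI1 mice lay within the control range. The log2 fold change was -0.20 (standard error 0.24), from means of 2150.1 ± 646 (SD, n = 5) and 1825 ± 448 (SD, n = 5), and the exact permutation p was 0.524. Single mice moved this value widely, to -0.42 without Vil-Cre 4, -0.33 without Vil-Cre:NDI1 4, -0.13 without Vil-Cre 3 or Vil-Cre 5, -0.11 without Vil-Cre 2 and -0.080 without Vil-Cre:NDI1 5. Vil-Cre 4 was also the mouse with the lowest Paneth cell markers, at a median of -1.30 (log2) from its genotype mean over the 8 such genes tested. What part the Paneth cells have in this value of Spink4 was not tested.

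Klk1, a tissue kallikrein that cleaves kininogen to release kinins, showed the widest fitted difference of the 9. Klk1 was at 306, 382, 379.7, 242 and 455 normalized counts in Vil-Cre 1 to 5 and at 265, 244, 297, 349 and 139.7 in Vil-Cre:NDI1 1 to 5. All 5 Vil-Cre:NDI1 mice were below the control mean, but only Vil-Cre:NDI1 5 was below the lowest control. Means were 353 ± 81.4 (SD, n = 5) and 259 ± 77.4 (SD, n = 5), with a log2 fold change of -0.47 (standard error 0.24), a 95% interval from 49.9% lower to 3.55% higher and an exact permutation p of 0.103. Without Vil-Cre 5 it was -0.37, and over all settings tried it lay between -0.60 (without Vil-Cre 4) and -0.27 (without Vil-Cre:NDI1 5). Klk1 has near relatives in a gene cluster, whose shared reads could be split in counting. The 13 Klk1b genes listed were at 4.90 normalized counts or less in every mouse, so little of the family signal sat outside Klk1.

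Retnlb, a resistin-like protein that goblet cells make during worm infection and under type 2 cytokines, was almost absent. Retnlb had 3, 4, 3, 0 and 14 reads in Vil-Cre 1 to 5 and 0, 4, 2, 2 and 4 reads in Vil-Cre:NDI1 1 to 5. A count of 0 allows up to 3 reads, so only Vil-Cre 5, at 13.6 normalized counts, passed that limit by more than 1 read. The mean was 4.76 ± 5.19 (SD, n = 5) in the controls and 2.45 ± 1.80 (SD, n = 5) with NDI1, and the exact permutation p was 0.516. No difference between genotypes was detectable at this depth and spread between mice. The limit of 3 reads covers counting error only.

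Agr2 is a disulfide isomerase of the endoplasmic reticulum on which Muc2 production depends. Agr2 was at 1112, 1356, 679, 971 and 1276 normalized counts in Vil-Cre 1 to 5 and at 1086, 611, 643, 1802 and 785 in Vil-Cre:NDI1 1 to 5. As with Muc2, the highest mouse was Vil-Cre:NDI1 4, and Agr2 differed 2.95-fold between the highest and the lowest mouse. The means of 1079 ± 268 (SD, n = 5) and 986 ± 493 (SD, n = 5) corresponded to -0.21 on the log2 scale (standard error 0.29), with an exact permutation p of 0.532. With a 95% interval from 44.4% lower to 33.7% higher, Agr2 was the least precisely measured of the 9 between genotypes. Single mice moved its log2 fold change to -0.073 without Vil-Cre:NDI1 2, -0.091 without Vil-Cre:NDI1 3, -0.12 without Vil-Cre 2, -0.14 without Vil-Cre 5, -0.37 without Vil-Cre 3 and -0.46 without Vil-Cre:NDI1 4.

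Both transcription factors were expressed at low levels. Spdef, an ETS factor, was at 205, 246, 124, 155 and 195 normalized counts in Vil-Cre 1 to 5 and at 179, 145, 175, 180.2 and 101 in Vil-Cre:NDI1 1 to 5. Atoh1 was at 214, 247, 152, 144 and 226 normalized counts in Vil-Cre 1 to 5 and at 190.2, 155, 141, 209.6 and 143 in Vil-Cre:NDI1 1 to 5. In both genes Vil-Cre 2 was the highest mouse and the groups overlapped. Spdef had means of 185 ± 47.0 (SD, n = 5) and 156 ± 34.1 (SD, n = 5), a log2 fold change of -0.24 (standard error 0.21) and an exact permutation p of 0.341. For Atoh1 the means were 197 ± 46.2 (SD, n = 5) and 168 ± 30.5 (SD, n = 5), the log2 fold change was -0.21 (standard error 0.18) and the exact permutation p was 0.254. Spdef was at -0.089 without Vil-Cre:NDI1 5, -0.12 without Vil-Cre 2, -0.21 without Vil-Cre 5 and -0.37 without Vil-Cre 3. Atoh1 was at -0.12 without Vil-Cre 2 and -0.15 without Vil-Cre 5. The 95% interval reached 38.6% lower for Spdef and 34.6% lower for Atoh1, so reductions of that size lie within what 5 mice per group allow.

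On the recovered reads, DESeq2 called 0 of the 10 genes at an adjusted p under 0.05, against 0.183% of the genes it adjusted, and 2 of 10 (Fcgbp and Klk1, named after their values were seen) had an unadjusted p under 0.05, against 4.81% of all genes it tested. The edgeR quasi-likelihood test called 0. The reads in the 10 genes made up 0.747% ± 0.067 (SD, n = 5) of a Vil-Cre library and 0.631% ± 0.103 (SD, n = 5) of a Vil-Cre:NDI1 library, with ranges of 0.662% to 0.822% and 0.486% to 0.760% that overlapped. Fcgbp alone held 49.5% of that sum in Vil-Cre and 50.1% in Vil-Cre:NDI1 mice, and with Zg16, Muc2 and Tff3 it held 95.1% and 95.3%.

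Levels between genes were compared per length, as normalized counts per kb of annotated exon, over all 10 mice. Zg16 led at 13771 ± 2408 per kb (SD, n = 10), followed by Tff3 at 13190 ± 2390 (SD, n = 10). Zg16 was above Tff3 in 8 of the 10 mice, by 1.04-fold on the means, a gap smaller than the spread between mice that depends on the length used: with the longest transcript Zg16 stood at 23942 and Tff3 at 13190 per kb. Spink4 at 4167 ± 1156 per kb and Fcgbp at 3592 ± 302 per kb (SD, n = 10 each) were also neighbours that did not separate, with Spink4 higher in 8 of 10 mice. Then came Muc2 at 1560.1 ± 419 per kb, Agr2 at 799 ± 293 and Klk1 at 284 ± 83.3 (SD, n = 10 each), each above the next in all 10 mice. Atoh1 at 85.9 ± 18.8 per kb was above Spdef at 74.0 ± 18.1 per kb in 9 of 10 mice, and Retnlb closed the order at 5.18 ± 5.55 (SD, n = 10 each). Per length, the secreted lectin and the trefoil peptide stood above the mucin in all 10 mice. The annotated exons of Muc2 depend on the transcript chosen. They cover 7127 bases over 8 transcripts, the longest of 2926 bases, so no single annotated transcript holds them all. Whether the annotation holds the whole Muc2 message was not tested, so its level per kb is uncertain. With the longest transcript of each gene as its length, Muc2 stood at 3800.1 per kb and Spdef passed Atoh1. By normalized count without length, Fcgbp ranked 24th among all genes of the tissue and Muc2 ranked 110th.

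**Figure D3:**
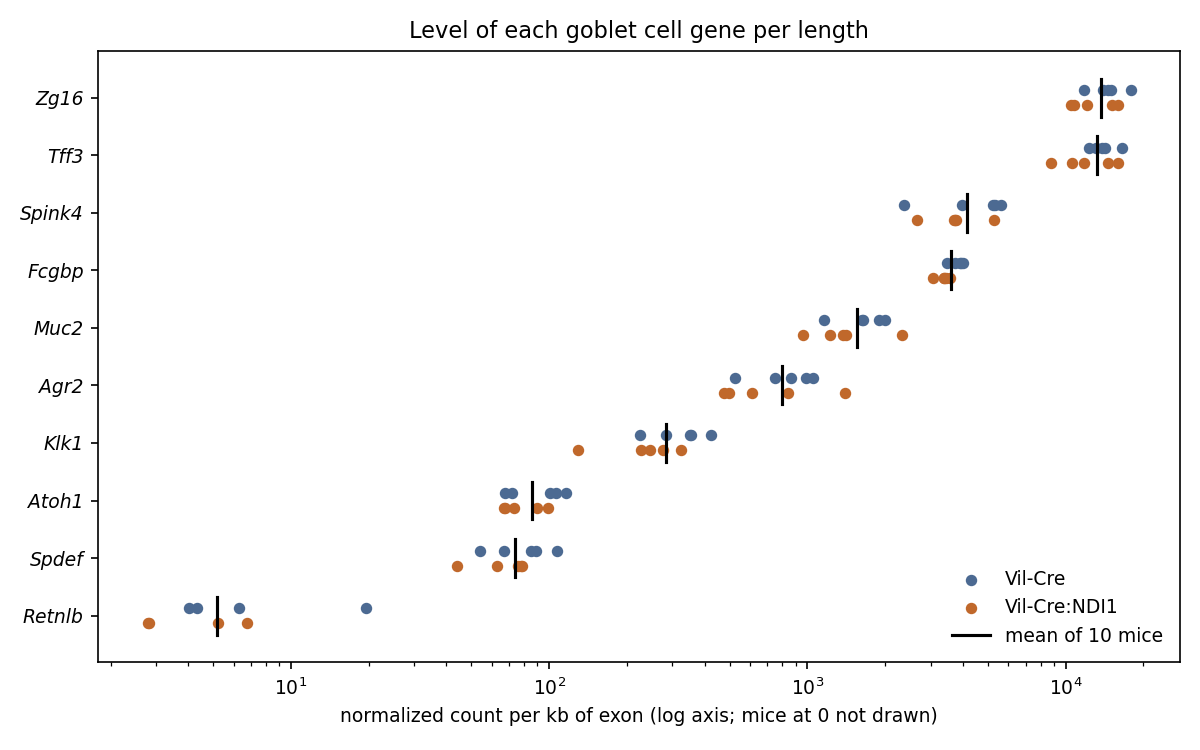
Normalized count per kb of exon (horizontal log axis) for each of the 10 goblet cell genes, with points for the 5 Vil-Cre mice (blue) and 5 Vil-Cre:NDI1 mice (orange) and a black line for the mean of 10 mice. The genes span from 13771 per kb (Zg16) to 5.18 per kb (Retnlb), and the 2 mice with 0 Retnlb reads are not drawn.

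Mice of one genotype differed in these genes by much more than counting error. The within-genotype coefficient of variation was 27.5% for Muc2, where counting alone gives 0.946%, and 38.5% for Agr2, where counting gives 3.11%. Fcgbp varied least, at 5.74% against 0.514% from counting. Tff3 (17.8%) and Zg16 (17.1%) were intermediate, and Atoh1 (21.5%), Spdef (24.1%), Klk1 (26.0%) and Spink4 (28.0%) lay above them. For Spdef and Atoh1, at 7.64% and 7.40% from counting, counting made up a larger part of the spread than in the abundant genes. Retnlb had a coefficient of 108%, against 52.7% from counting.

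The deviations of single mice ran through most of the genes together. Vil-Cre:NDI1 4 was above the mean of its genotype in 9 of the 9 genes tested, with a median log2 deviation of 0.41, and Vil-Cre:NDI1 5 was below it in 9 of 9, with a median of -0.46. Among the controls, Vil-Cre 2 was above the genotype mean in 9 of 9 (median 0.30), and Vil-Cre 3 was above it in only 3 (median -0.30). In Vil-Cre:NDI1 4 the Paneth cell markers also stood high (median log2 deviation 0.67) and in Vil-Cre:NDI1 5 low (-0.83), as they stood high in Vil-Cre 2 (0.69), but in Vil-Cre 3 they were near the mean (0.0048). Their part in the goblet cell values was not tested.

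**Figure D4:**
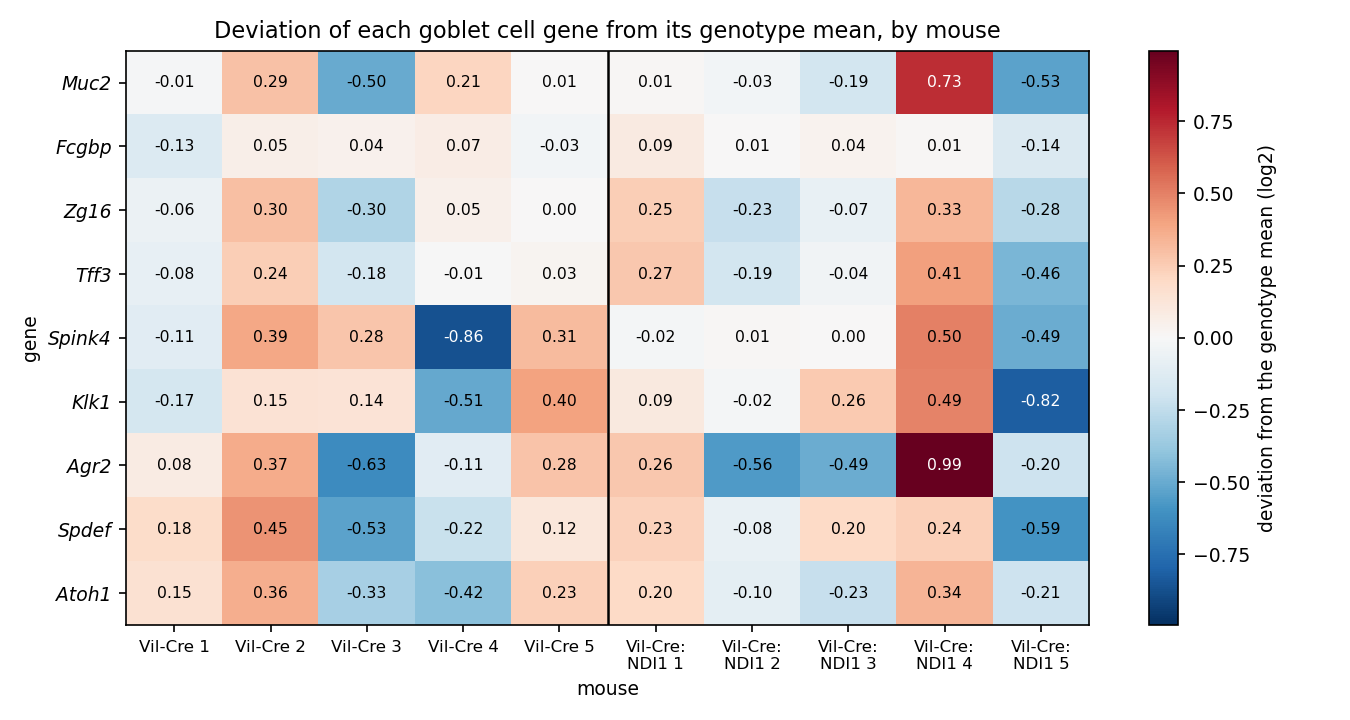
Deviation of log2(value + 1) from the genotype mean for the 9 goblet cell genes tested (rows) in each of the 10 mice (columns, Vil-Cre left of the line), with red above and blue below the mean. Vil-Cre 2 and Vil-Cre:NDI1 4 are above the mean in every gene and Vil-Cre:NDI1 5 is below it in every gene, while the Fcgbp row stays pale, between -0.14 and 0.09.

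Correlations of these deviations over the 10 mice describe how closely the genes moved together, and since the mice are few and all genes of a mouse are read from the same library they are given without a p. Over the 36 pairs of the 9 genes, the median Pearson r was 0.60, with 35 pairs above 0 and 22 above 0.5. The closest pair was Tff3 and Zg16 (r = 0.94, Spearman's rho = 0.93), followed by Spink4 and Klk1 (r = 0.87). With Muc2, r was 0.85 for both Zg16 and Tff3, 0.80 for Agr2, 0.70 for Spdef and 0.61 for Atoh1. Muc2 had a median r of -0.010 with the 14300 other genes tested, with a 90th percentile of 0.53. Among them Zg16, Tff3 and Agr2 ranked 58th, 64th and 129th, and Spdef and Atoh1 449th and 911th. Klk1, Fcgbp and Spink4 ranked 2066th, 3212th and 3519th, with r below that percentile. Without Vil-Cre:NDI1 4 and Vil-Cre:NDI1 5, the mice farthest from the median in Muc2, r with Muc2 was 0.76 for Zg16, 0.61 for Tff3, 0.70 for Agr2, 0.63 for Spdef and 0.46 for Atoh1.

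Klk1, Spink4 and Fcgbp had the lowest r with Muc2, at 0.46, 0.30 and 0.34, and without the same 2 mice it was -0.35, -0.31 and 0.078, so those relations rest on 2 mice. With genes other than Muc2 they were closer, at r = 0.68 for Klk1 with Tff3, 0.63 for Klk1 with Spdef, 0.67 for Spink4 with Atoh1 and 0.58 for Fcgbp with Tff3. Fcgbp had a median r of 0.31 with the other 8 genes, the lowest of the 9, and r = -0.044 with Atoh1. Spink4 and Klk1, close to each other, moved with the Paneth cell markers, at r = 0.92 for Spink4 (rho = 0.77) and r = 0.81 for Klk1 (rho = 0.62) with the median deviation of those markers. The r with the Paneth markers was 0.75 for Atoh1 and 0.67 for Spdef, which act in both lineages, 0.39 for Muc2, 0.36 for Zg16 and 0.029 for Fcgbp. With the median of the crypt stem and dividing cell markers, r was 0.81 for Klk1, 0.67 for Spink4, 0.66 for Tff3, 0.61 for Agr2 and 0.60 for Muc2. T cell markers moved more closely than Paneth cell markers with the abundant genes, at r = 0.76 for Tff3 and Fcgbp, 0.67 for Zg16 and 0.59 for Muc2, and Fcgbp had r = 0.77 with the enteroendocrine markers. With the enterocyte markers, r was below 0 for all 9 genes, from -0.74 for Klk1 to -0.016 for Fcgbp.

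**Figure D5:**
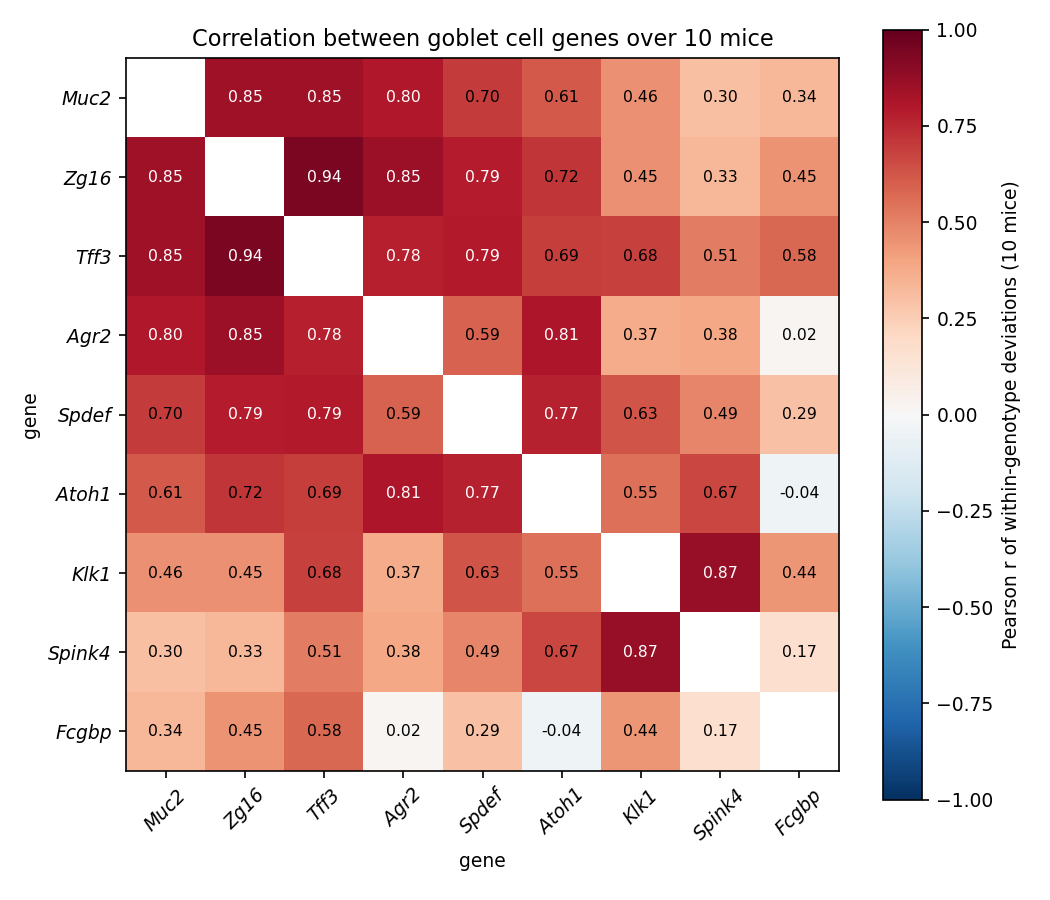
Pearson r between the within-genotype deviations of each pair of the 9 goblet cell genes tested (rows and columns), over 10 mice, on a scale from -1 (blue) to 1 (red). Muc2, Zg16, Tff3 and Agr2 form a red block from 0.78 to 0.94, Spink4 and Klk1 share 0.87, and the Fcgbp row is palest.

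Among all other genes, the 8 most like the mean standardised deviation of the 9 were Sf3b4 (r = 0.96), Slc12a8 (0.95), Emd (0.94), Tmed9 (0.94), Cct8 (0.93), Noc3l (0.92), Dnajc10 (0.92) and Nrf1 (0.92), the highest of 14292 correlations over 10 mice. Slc12a8 is itself on a list of 23 further goblet cell markers, which were spread widely in likeness. Galnt12 ranked 25th, Ccl9 59th, Foxa3 71st and Creb3l1 81st. Most of the others ranked between 105th (Bace2) and 1944th (Rep15), with the abundant Clca1 at 1359th. Capn9 ranked 4775th, Guca2a 5489th, Scin 5595th, Smim6 6503rd, Nlrp6 9079th and Oit1 10862nd. For single genes, the closest other gene was Pdia6, a disulfide isomerase, for Agr2 (r = 0.97), Ssr1, a subunit of the translocon-associated complex, for Muc2 (0.96) and Chst4, a sulfotransferase, for Tff3 (0.96). Zg16 had Tff3 as its closest gene. The closest genes of Fcgbp (Pax6, r = 0.96), Spdef (Ptgs2, 0.94) and Atoh1 (Gm10800, 0.93) were measured at low counts, with means from 8.59 to 33.8 in either genotype, and that of Spink4 was Cfdp1 (0.95).

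The wider goblet cell program was read from lists of other genes, by counts and medians only, and Galnt12, Gcnt3, Foxa3, Ern2, Creb3l1 and Creb3l4 each stand on 2 of them. Of the 23 further goblet markers tested, 0 were called by limma and 19 had a log2 fold change below 0, with a median of -0.19. The most abundant, Clca1, a secreted metalloprotease of the mucus, was at 18492 ± 7214 normalized counts in Vil-Cre and 11776 ± 3238 in Vil-Cre:NDI1 mice (SD, n = 5 each), with a log2 fold change of -0.59 (standard error 0.29) and an adjusted p of 0.998 from limma. Guca2a, the guanylin precursor, had a log2 fold change of -0.05. Of the mucin glycosylation enzymes 19 of 21 were tested, 0 were called and 14 were below 0 (median -0.053), with St3gal4 at 0.09 and B4galnt2 at -0.04. The 23 folding factors of the secretory pathway had a median of -0.019, with 12 below 0 and 0 called, and the chaperones Hspa5 (0.0023) and Calr (0.04) were near 0. These enzymes and chaperones are shared with other secretory cells.

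Upstream, 17 of the 18 Notch and secretory fate genes were tested, 0 were called and 14 were below 0 (median -0.19). Klf4 was at 0.03 and Elf3 at -0.30, and 2 genes, Notch2 (-0.39) and Gfi1 (-0.60), named after their values were seen, had an unadjusted p under 0.05 in limma. Of the type 2 cytokine axis, which drives goblet cell expansion, 4 of 10 genes were tested and 0 were called, with Stat6 at 0.02 and Il13ra1 at 0.04. Il33, also named after its values were seen, was at 111 and 165 normalized counts with a log2 fold change of 0.60, and its unadjusted p alone was under 0.05. Other mucins did not follow the goblet cell genes in sign, with 2 of 5 tested below 0 and a median of 0.021. Muc13, a membrane mucin of enterocytes, was at 27664 ± 5950 and 27788 ± 3578 normalized counts (SD, n = 5 each). Muc3 had a log2 fold change of 0.08. Of 20 relatives in the families of the goblet cell genes 3 passed the filter, 0 were called and 1 was below 0, with Spink1 at 0.24 and Retnla at -0.04.

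Markers of other cell types were read beside the genotype values. All 11 enterocyte markers had log2 fold changes above 0 (median 0.22, Apoa4 at 0.39), with summed levels of 418044 to 690130 normalized counts in Vil-Cre and 612556 to 807485 in Vil-Cre:NDI1 mice. The lowest of these sums, 418044, was that of Vil-Cre 5, the mouse with low enterocyte markers. Fold changes of the marker lists without this mouse are not given here. Of the Paneth cell markers 7 of 8 tested were below 0 (median -0.17, Defa24 at -0.14), with sums of 37256 to 129128 and 43249 to 133407. All 7 tuft cell markers tested were below 0 (median -0.48, Trpm5 at -0.31), with sums of 1094 to 2948 and 764 to 2070.2. For the other lists the medians were -0.020 for enteroendocrine cells (Chgb -0.11), 0.014 for crypt stem and dividing cells (Olfm4 0.05), -0.38 for B and plasma cells (Igha -0.12), -0.12 for T cells (Gzma 0.02), -0.063 for smooth muscle (Myh11 -0.16), 0.14 for adipocytes (Cidec 0.07) and 0.12 for the acinar marker tested (Cela1). In none of these lists was a gene called. Over the mice, Paneth, crypt and T cell markers moved with several of the goblet cell genes, and enterocyte markers moved against most of them. Fcgbp had r near 0 with the enterocyte and Paneth markers, 0.77 with enteroendocrine, 0.76 with T cell and -0.65 with smooth muscle markers. The part of these cells in the genotype differences was not tested.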

How the data were processed

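The authors trimmed single-end reads (trimGalore!), aligned them by STAR to a GRCm38 genome extended with NDI1, and used Salmon for gene assignment. The annotation release and strand setting are not given in the sources used here. The deposited values are a signal, reads per gene scaled by a DESeq2 size factor for each library (0.852 to 1.10), and 0 columns were left unused. Whole reads could be recovered for 100% of the non-zero values of every library, within 0.1 read. For Vil-Cre 3 and Vil-Cre 4 the value of 1 read lies near 1 (1.00184 and 1.01109). Their deposited values are not whole numbers, with Klk1 at 379.699 for 379 reads and at 241.651 for 239 reads. As a precaution, count tests were also run without them. Reads per library had a median of 10960851 in Vil-Cre and 11435399 in Vil-Cre:NDI1 mice. Libraries of a genotype differed beyond sampling noise (chi-square per gene 12.1 to 56.3), so none was counted as a duplicate.

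Limma 3.58.1 in R 4.3.3 was fitted to log2(value + 1) with eBayes, a variance trend and Benjamini-Hochberg adjustment (threshold 0.05), over genes at 10 or more in at least 5 mice (with 1 mouse left out, in as many mice as the smaller group). Fold changes on this scale understate those of low genes. The script was tested on simulated data. DESeq2 1.42.0 (Wald test, local dispersion fit) and edgeR 4.0.16 (quasi-likelihood, TMM) on recovered reads were alternatives, beside other pseudocounts, filters, scaling, a replicate block and leaving out each mouse. Gene IDs matched GENCODE M21 for 45143 of 45707 rows. The goblet cell genes and all lists were chosen with earlier results of these data known. Named beside them are the 2 most abundant genes of each pathway or family list, the most abundant of each other cell type, the 8 most like the mean of the goblet cell genes and the closest to each. Another gene taken by this rule is not reported here.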

Additional observations from a re-analysis of the deposited data

How the results depend on the processing

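The count of goblet cell genes called stayed at 0 under all 20 alternatives, with or without 1 mouse, and no single gene changed sign. Their median log2 fold change of -0.21 lay between -0.31 and -0.12 with each mouse left out and between -0.36 and -0.20 otherwise, and the lowest adjusted p of any of the 9 was 0.161 (Atoh1, DESeq2 on 8 libraries). The median pairwise r of 0.60 lay between 0.47 and 0.73 with each mouse left out. Genes called among all tested, 1 in the reported fit, numbered 2 with a minimum value of 50, 31 with DESeq2 (16 higher, 15 lower), 276 with DESeq2 on the 8 libraries without Vil-Cre 3 and Vil-Cre 4 (152 higher, 124 lower, chosen after seeing the data), 1 with edgeR on all 10 or on those 8 libraries, and 1 to 3 with each mouse left out (3 without Vil-Cre:NDI1 5). The cause was not tested. With the replicate block the count was 1 gene, and the replicate block changed no call among the goblet cell genes. The numbers did not pair the mice: deviations of same-numbered mice correlated at -0.12 to 0.14, and 2 of 10 mice correlated best with their own number. Equal library totals shifted the median of all genes by -0.062 and that of the goblet cell genes to -0.27. With the longest transcript as length, Muc2, Fcgbp, Zg16 and Agr2 moved beyond their spread (Zg16 to 23942 per kb). With 5 mice per group, intervals of about the width given for each gene are the limit. Retnlb had few reads, and its spread between mice exceeded counting error.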

Other observations

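Ratios within a mouse, chosen after the values were seen and given as descriptions, differed in how tightly they were held. Zg16 over Tff3 lay between 2.44 and 3.03 in all 10 mice, a 1.24-fold range. Muc2 over Fcgbp lay between 0.201 (Vil-Cre 3) and 0.464 (Vil-Cre:NDI1 4), a 2.31-fold range, and Spink4 over Muc2 between 0.0837 (Vil-Cre 4) and 0.302 (Vil-Cre 3), a 3.61-fold range. Agr2 over Muc2 ran from 0.0627 to 0.114, and Spdef over Atoh1 from 0.705 to 1.24. The 10 goblet cell genes together equalled 7.29% (Vil-Cre:NDI1 5) to 19.3% (Vil-Cre 5) of the sum of the 11 enterocyte markers.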
